A study of Mus musculus with 15 samples.

Results

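Small nucleolar RNAs and small Cajal body RNAs are short nuclear RNAs that guide the chemical modification of other RNAs. They were taken here as every gene with a probe set whose single platform symbol begins with Snora, Snord or Scarna, which gave 54 of the 19938 genes with a probe set of their own. By symbol, 31 of them are C/D box RNAs (Snord), 20 are H/ACA box RNAs (Snora) and 3 are Cajal body RNAs (Scarna). Where such a gene has more than 1 probe set, the brightest over all 15 arrays was used.

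The arrays carry RNA of mouse kidney in 4 groups, on no stated strain background. In the first group, 4 arrays each hold 1 cell of the metanephric mesenchyme (MM), from which the nephrons of the kidney form. These cells, numbered 14, 15, 16 and 19, were taken at embryonic day 11.5 from Crym-GFP embryos of unknown sex, whose transgene is listed as Tg(Crym-EGFP)GF82Gsat. In the next group, 5 arrays each hold 1 juxtaglomerular (JG) cell, numbered 4 to 8, picked by its fluorescence from adult male mice listed as Ren1c-YFP. Renin promoter activity thus chose these cells, although the dissection text of the same labels speaks of Ren1d GFP mice. The remaining groups are lysates of many cell types from the cortex of adult male Ren1c-YFP mice, with libraries A, B and C in each. Diluted cortex went through the same single cell amplification as the cells, listed with 32 rounds, and standard cortex was amplified with a NuGEN kit, listed with 1 round. Nothing in the labels says that libraries or cells came from different animals. The renin gene was not analysed here, so the JG label was not checked against it. Six2, a transcription factor of nephron progenitors, measured 7.53, 7.18, 10.13 and 6.69 in MM cells 14, 15, 16 and 19, and lay above background in cells 14 and 16 alone of the 4.

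C/D box RNAs carry a pair of short sequence motifs, box C and box D, and direct 2'-O-methylation by fibrillarin (Fbl). H/ACA box RNAs fold into hairpins and direct pseudouridylation by dyskerin (Dkc1). Most members of both classes act on ribosomal RNA, and a few help to cut its precursor, while Cajal body RNAs guide the modification of spliceosomal RNAs. In mammals nearly all are released from introns of host genes, many of which encode ribosomal proteins or no protein at all. The mature guides have no poly(A) tail. A probe set inside an intron also matches the unspliced host RNA, and on these arrays the mature guide and its precursor cannot be told apart.

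Values are log2 probe set signals as deposited. Background was taken from 1210 probe sets of olfactory and vomeronasal receptors, sensory genes that few kidney cells are thought to use. A level is called above background where it exceeds the 99th percentile of those probe sets on the same array. That limit was 7.13 to 7.56 on MM arrays, 7.55 to 7.92 on JG arrays, 6.18 to 6.30 on diluted and 6.30 to 6.51 on standard cortex arrays. By that measure each MM cell had 10.9% to 21.1% of all genes above background, each JG cell 6.87% to 14.2%, each diluted library 48.3% to 50.5% and each standard library 43.7% to 48.2%. JG cells 5 and 4 had the lowest shares among the cells.

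Most of the 54 RNAs were near background everywhere. Only 23 exceeded it on at least 1 of the 15 arrays, and 31 on none. The number above background was 6, 3, 1 and 3 in MM cells 14, 15, 16 and 19, and 2, 0, 2, 4 and 1 in JG cells 4 to 8. It was 12 in each diluted library, and 11, 13 and 12 in standard libraries A, B and C. The cortex libraries thus held more detected members than any single cell, and the diluted and standard libraries held about as many as each other. These counts rest on the threshold. Against the 99th percentile of 291 microRNA genes in place of the receptors, the mean number per array was 1.25 in MM cells, 0.2 in JG cells, 0 in diluted cortex and 2.33 in standard cortex. That is a far stricter cut and not a second background. On each array 12.4% to 15.8% of the microRNA genes were themselves above the receptor limit.

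**Figure D1:**
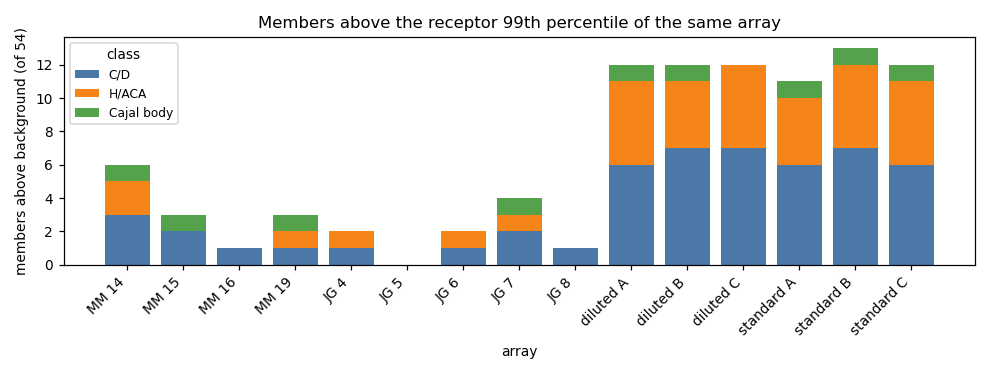
Number of the 54 RNAs above the receptor background on each of the 15 arrays (bars, stacked by class). Diluted and standard libraries reach 11 to 13, MM cells 1 to 6 and JG cells 0 to 4.

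Both classes were detected in the cortex in about the same numbers under either labelling. C/D box RNAs above background numbered 1 to 3 per MM cell, 0 to 2 per JG cell, 6 or 7 per diluted library and 6 or 7 per standard library, of 31. For H/ACA box RNAs, of which there are 20, the numbers were 0 to 2 per MM cell, 0 or 1 per JG cell, 4 or 5 per diluted library and 4 or 5 per standard library. The members above background were not all the same under both labellings. Snord104, Snord14e, Snord42a, Snord47 and Snord55 were above background in all 6 cortex libraries. Snord96a, Snora44, Snora70 and Snora7a were above it in every diluted but not every standard library. Snora44 averaged 6.50 under either labelling, missed the limit in standard library A alone, at 6.36, and was not called in the comparison that follows. Snord22, Snora23, Snora3, Snora31, Snora33 and Scarna17 were above it in every standard but not every diluted library. In the MM cells Snord55 was the one RNA above background in all 4, and no member was above it in all 5 JG cells. The share of all genes above background throughout a group was 6.60% in MM and 3.42% in JG cells. In diluted cortex it was 45.9%, against 19.4% of C/D and 15% of H/ACA box RNAs. In standard cortex it was 42.7%, against 19.4% and 20%. Snord118, the U8 RNA needed to process the precursor of the large ribosomal subunit, was above background nowhere, and it is the one member with no spanning gene in the RefSeq table.

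Diluted and standard cortex, which differ by the labels in dilution and in amplification, were compared first. More guide RNAs were called lower than higher in the diluted libraries. Of the 31 C/D box RNAs, 16 were lower, 3 higher and 12 not called (limma, Benjamini-Hochberg adjusted p under 0.05 over all 35557 probe sets). Of the 20 H/ACA box RNAs, 7 were lower, 2 higher and 11 not called, and of the 3 Cajal body RNAs 2 were lower. Across all probe sets 28.7% were called lower and 21.6% higher, or 50.3% in either direction. Counted by gene, as the members are, the balance was the opposite, with 24.9% of 19938 genes lower and 27.4% higher. The shares called lower were thus 51.6% for C/D and 35% for H/ACA, and those called higher 9.68% and 10%. The median log2 difference, diluted minus standard, was -0.43 over C/D, -0.22 over H/ACA and -0.02 over all genes, and of the 25 members called lower, 14 lay under background in all 6 libraries. For microRNA genes, another class of short RNA without a poly(A) tail in its mature form, 26.8% of 291 were lower and 4.81% higher, with a median of -0.10. Since the libraries may share an animal, the spread behind these p-values may be technical.

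**Figure D2:**
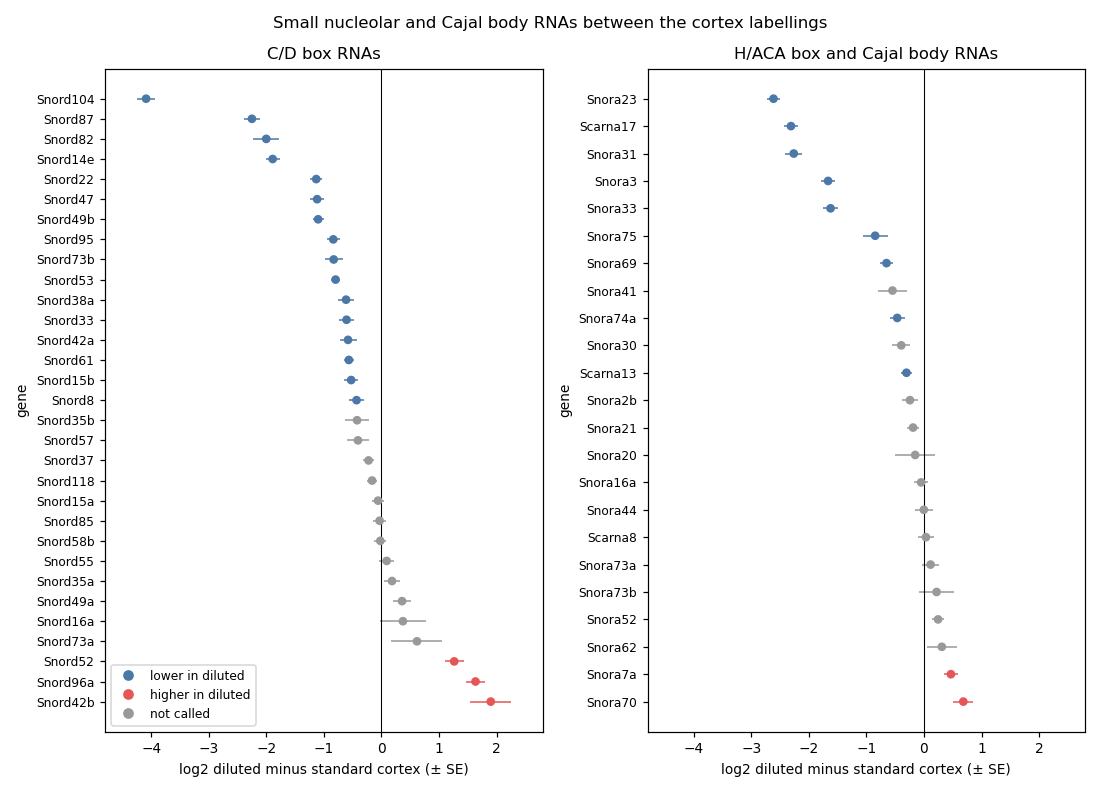
Log2 difference between diluted and standard cortex for each of the 54 RNAs, with bars of 1 SE from limma (3 libraries each). Blue points were called lower in diluted cortex, red points higher and grey points neither, and Snord104 lies lowest at -4.09.

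Snord104, a C/D box RNA of ribosomal RNA methylation, had the largest difference of all members. It measured 6.49, 7.04 and 6.88 in the diluted libraries, against 10.79, 11.03 and 10.84 in the standard libraries. All 6 values were above background and the groups were far apart. The log2 difference was -4.09 (SE 0.15, adjusted p = 4.64e-07 with limma), a level 17.0-fold lower in diluted cortex. Snord14e, a U14 RNA that takes part in processing the small subunit's RNA, measured 7.42, 6.99 and 7.18 in diluted and 9.0, 9.09 and 9.16 in standard libraries. Its groups did not overlap either, and the difference was -1.89 (SE 0.12, adjusted p = 6.99e-06 with limma), or 3.70-fold lower.

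Snord47, encoded in the noncoding gene Gas5, measured 6.62, 6.65 and 6.60 in diluted libraries and 7.82, 7.51 and 7.89 in standard libraries. The groups did not overlap, and the difference was -1.12 (SE 0.12, adjusted p = 0.000102 with limma), or 2.17-fold lower in diluted cortex. Snord42a measured 7.41, 6.92 and 7.08 in diluted and 7.53, 7.78 and 7.84 in standard libraries. Its diluted values came closest to the standard ones among these 4 RNAs, at -0.58 (SE 0.15, adjusted p = 0.0124 with limma), and the call was lost when each array was centred on its median. Snord22, the U22 RNA of small subunit processing, was above background in all standard libraries (7.10, 6.94 and 7.23) and in none of the diluted ones (6.02, 5.86 and 5.99). It was at least 1.79-fold lower in diluted cortex, where the bound sets the standard mean against the background limit of the diluted arrays or the measured level, whichever is higher (adjusted p = 5.46e-05 with limma).

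Snord87 was above background in 1 standard library, at 6.34, with 6.08 and 6.17 in the others, against 4.10, 4.06 and 3.69 in diluted libraries (adjusted p = 4.39e-06 with limma). Snord82, which lies in the nucleolin gene Ncl, was under background in both groups at 3.19 ± 0.06 in diluted and 5.19 ± 0.51 in standard cortex (SD, n = 3 each), so its call (adjusted p = 0.000174 with limma) is given without a fold. Snord55 was above background in all 6 libraries, at 7.08, 7.30 and 7.25 in diluted and 7.34, 6.94 and 7.08 in standard cortex. Those values overlapped, and the difference of 0.09 was not called (adjusted p = 0.582 with limma).

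The 3 C/D box RNAs higher in diluted cortex were Snord42b, Snord96a and Snord52. Snord96a was above background in every diluted library (6.36, 6.65 and 6.98) and under it in every standard one (4.97, 5.19 and 4.93), at least 1.22-fold higher (adjusted p = 7.98e-05 with limma). Snord42b measured 5.57, 7.19 and 6.65 in diluted libraries, of which B and C were above background, and 4.56, 4.67 and 4.49 in standard libraries (adjusted p = 0.00289 with limma). Its SD over diluted libraries, 0.83, was wider than that of any other called member. Snord52 stayed under background in both groups, at 5.75 ± 0.30 in diluted and 4.49 ± 0.17 in standard cortex (SD, n = 3 each, adjusted p = 0.000343 with limma).

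Among H/ACA box RNAs, Snora23, Snora31, Snora33 and Snora3 were above background in every standard library and in no diluted one. Snora31 measured 5.18, 5.78 and 5.44 in diluted libraries, against 7.71, 7.76 and 7.72 in standard libraries, and was at least 2.78-fold lower (adjusted p = 7.35e-06 with limma). Snora33 measured 5.91, 6.26 and 5.98 in diluted and 7.55, 7.83 and 7.63 in standard libraries, at least 2.67-fold lower (adjusted p = 1.80e-05 with limma). Each of the 4 separated the groups without overlap. That adds nothing to their detection, since the background limits of the diluted libraries all lay under those of the standard ones. Snora23 measured 5.00, 4.74 and 4.82 in diluted and 7.29, 7.55 and 7.55 in standard libraries, at least 2.31-fold lower (adjusted p = 8.97e-07 with limma). Snora3 measured 5.41, 5.05 and 5.4 in diluted and 6.90, 6.88 and 7.07 in standard libraries, at least 1.62-fold lower (adjusted p = 1.42e-05 with limma).

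The H/ACA box RNAs higher in diluted cortex were Snora70 and Snora7a, both of which lie in ribosomal protein genes. Snora70 measured 6.46, 6.81 and 6.82 in diluted libraries and 6.30, 5.69 and 6.05 in standard libraries, at least 1.25-fold higher (adjusted p = 0.0127 with limma). Snora7a measured 6.22, 6.56 and 6.32 in diluted and 5.81, 6.02 and 5.88 in standard libraries, with no fold since its bound was under 1 (adjusted p = 0.0108 with limma). Neither call held at an adjusted p under 0.01. Snora73a and Snora73b, the U17 RNAs needed to process small subunit RNA, were not called, at 6.54, 6.03 and 6.12 and at 6.92, 5.61 and 6.34 in diluted cortex, against 6.24, 6.17 and 5.95 and 6.13, 6.20 and 5.89 in standard cortex.

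Scarna17 was the Cajal body RNA with a detected difference. It measured 6.36, 6.45 and 6.05 in diluted libraries, with A and B above background, and 8.54, 8.64 and 8.60 in standard libraries. The difference was -2.31 (SE 0.12, adjusted p = 2.12e-06 with limma). Scarna13, at 5.57 ± 0.11 in diluted and 5.88 ± 0.03 in standard cortex (SD, n = 3 each), was called lower, although under background in all 6 libraries (adjusted p = 0.0258 with limma), and lost the call in 5 of the 6 fits that left out 1 library, with diluted library A the exception. Scarna8 was not called (adjusted p = 0.849).

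**Figure D3:**
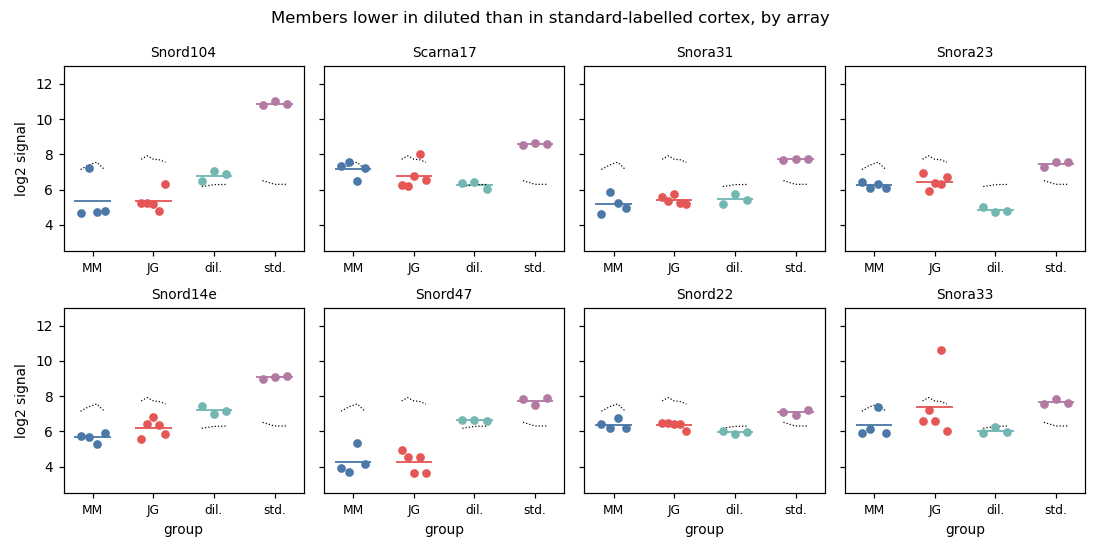
Log2 signal of 8 RNAs that were lower in diluted than in standard cortex, by array (points) with the group mean (line) and the receptor background of each array (dotted). Standard libraries lie above background in all 8 panels. Snord104, Snord14e and Snord47 stay above it in every diluted library, and Scarna17 in diluted libraries A and B.

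RNAs within the same gene did not always share a direction. Snord42a and Snord42b both lie in Rpl23a, a ribosomal protein gene, which measured 12.74 in diluted and 12.63 in standard cortex on average (difference 0.11, adjusted p = 0.348 with limma). Snord42a was lower and Snord42b higher in diluted cortex. Snord95 and Snord96a both lie in Rack1, which encodes a ribosomal scaffold protein. Snord95 was lower at 5.19, 5.41 and 5.36 in diluted and 6.30, 6.02 and 6.15 in standard libraries (under background in all 6, adjusted p = 0.000370 with limma), while Snord96a was higher. In Ncl, whose own signal differed by -2.02, Snord82 and Snora75 were both lower. Snora75 measured 4.56, 4.71 and 4.22 in diluted and 5.82, 5.04 and 5.17 in standard libraries, under background in each (adjusted p = 0.0135 with limma), and the call was lost without diluted library C.

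By the RefSeq table, 53 members lie within the span of another gene, and 29 have a spanning gene measured by a probe set of its own. Among the 25 measured spanning genes themselves, 11 were lower, 7 higher and 7 not called. Of the 14 such members called lower, 9 had a spanning gene called lower, 2 a higher one and 3 one not called. For the 13 members not called the numbers were 4, 5 and 4. Over the 29, member and spanning gene had the same call in 14. Snora23 and its spanning gene Ipo7, a nuclear import receptor gene, were both lower. Ipo7 averaged 4.83 in diluted cortex, under background in every library, and 9.71 in standard cortex, at least 11.0-fold lower. Snord47 and Gas5 were both lower, at -2.31 for Gas5 (SE 0.13, adjusted p = 3.00e-06 with limma). Snord14e was lower while Hspa8, the heat shock cognate gene it lies in, differed by -0.04, and Snora31 was lower with -0.64 for Tpt1. Strand was not checked, and several members share a spanning gene, so these pairs are not independent.

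**Figure D4:**
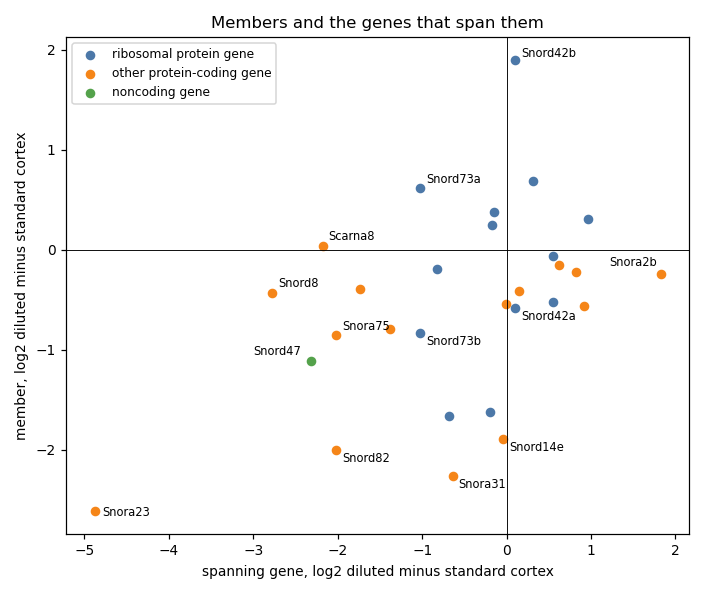
Log2 difference between diluted and standard cortex of the spanning gene (horizontal axis) and of the guide RNA within it (vertical axis) for 29 members, coloured by the kind of spanning gene; Ipo7, at the far left with Snora23, was under background in diluted cortex. Snord42a and Snord42b sit on opposite sides of 0 at the same value of Rpl23a.

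By kind of spanning gene, 8 of 21 members in ribosomal protein genes were lower (38.1%) and 3 higher (median -0.06). In other protein-coding genes 9 of 18 were lower and 1 higher (median -0.49), and in noncoding genes 8 of 14 were lower (57.1%) and 1 higher (median -0.38). Over all genes 24.9% were lower, and the differences between kinds were not tested. Annotated lengths overlapped between the calls. Members lower in diluted cortex had a median RefSeq length of 82 nucleotides (45 to 275), the 5 higher ones 77 (55 to 129) and those not called 109.5 (53 to 205).

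JG cells were set against diluted cortex because the labels say that this cortex was made for that purpose. The cells of a group count as 1 sample, so no test was made, and differences of group means are given beside the shift of the receptor genes. In a mixed lysate, fewer cells of a type and less RNA per cell cannot be told apart. No member was above the receptor shift of 1.02 by 1 log2 unit or more, and 15 of 54 lay below it by that much, 9 C/D and 6 H/ACA. Over all genes the share that low was 40.8%, and 0.587% were that high. The median difference, JG minus diluted, was 0.64 for C/D and 0.79 for H/ACA as deposited, and 0.56 over all genes. For C/D and H/ACA it turned to -0.42 and -0.27 when arrays were centred on the receptor median, so the classes have no direction apart from the scaling.

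The RNAs that lay lowest were among those detected in the cortex. Snord42a measured 4.31, 4.62, 3.97, 4.52 and 3.79 in JG cells 4 to 8, against 7.41, 6.92 and 7.08 in the diluted libraries. Snord47 measured 4.92, 4.53, 3.65, 4.52 and 3.61 in JG cells, against 6.62, 6.65 and 6.60 in diluted cortex. Both were under background in every JG cell and above it in every diluted library. The limit was higher on JG arrays, at 7.55 to 7.92, so the level of the diluted libraries would not have been called above background there, and no fold is given. Rpl23a, which holds Snord42a, measured 9.40, 5.95, 13.28, 12.63 and 13.09 in JG cells 4 to 8, against 12.66, 12.78 and 12.77 in diluted cortex. It was low in JG cells 4 and 5, which had the fewest genes above background. Gas5, which holds Snord47, was 5.42 to 6.68 in JG cells and 10.49 to 10.92 in diluted cortex. Snord42b, Snord104 and Snord96a were under background in every JG cell as well.

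Snord55 was the member most often detected in JG cells. It measured 9.30, 7.35, 8.64, 8.92 and 8.94 in JG cells 4 to 8, against 7.08, 7.30 and 7.25 in diluted libraries. It exceeded its array's background in every JG cell but cell 5. Its group means differed by 1.42, which is 0.40 beyond the receptor shift of 1.02. Snord8 and Scarna17 were above background in JG cell 7 alone, at 7.92 and 8.03, and Snora73a in cells 4 and 6, at 8.15 and 7.74.

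MM cells gave a like picture against the same diluted libraries, which both comparisons share. The receptor shift was 0.81. Members at least 1 log2 unit below it numbered 7 C/D and 4 H/ACA, against 36.9% of all genes, and 2 lay as far above it, against 0.787%. The median difference, MM minus diluted, was 0.60 for C/D and 0.65 for H/ACA as deposited, and -0.24 and -0.20 after centring on the receptor median. Over all genes the deposited median was 0.42. The 2 above were Snora3 and Snord33, and they depend on single cells. Snora3 was far higher in MM cell 14 than in the others, and Snord33, named after its values were seen, measured 5.26, 7.0, 5.78 and 4.85, under background in each. With 1 array left out at a time, an alternative chosen after seeing the data, the number above was 2 to 5. Snora3 was not among them without MM cell 14, nor Snord33 without MM cell 15. Snord42a measured 4.25, 4.81, 5.71 and 4.39 in MM cells 14, 15, 16 and 19, against 7.41, 6.92 and 7.08 in diluted libraries. Snord47 measured 3.91, 3.68, 5.37 and 4.16 in MM cells, against 6.62, 6.65 and 6.60 in diluted libraries. Every MM cell lay under background for both, with a limit of 7.13 to 7.56 that the diluted level of Snord47 would not have passed. For Snord42a, diluted libraries B and C, at 6.92 and 7.08, would not have passed it either. Diluted library A, at 7.41, lay under the limit of MM cell 16 alone. Rpl23a averaged 13.08 in MM cells and 12.74 in diluted cortex, and Gas5 measured 12.04, 12.83, 7.56 and 11.56 in MM cells, against 10.49 to 10.92 in diluted cortex. Gas5 was thus above the diluted libraries in every MM cell but cell 16, while Snord47 was below them in all 4.

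Snord104 was under background in all 9 single cells, whose limits of 7.13 to 7.92 lie above all diluted values of this RNA. It measured 4.68, 7.23, 4.71 and 4.78 in MM cells and 5.24, 5.25, 5.18, 4.82 and 6.31 in JG cells, against 6.49, 7.04 and 6.88 in diluted libraries. Snord14e was under background in all 9 cells too, at 5.76, 5.67, 5.29 and 5.92 in MM cells and 5.58, 6.44, 6.81, 6.37 and 5.86 in JG cells, against 7.42, 6.99 and 7.18 in diluted libraries. MM cell 15 exceeded the diluted libraries for Snord104 but not the background of its own array.

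MM and JG cells were compared as single cells amplified alike, at different stages and from different mouse lines. The class medians lay close to the receptor shift. That shift, MM minus JG, was -0.22, and the median difference was -0.11 for C/D and -0.20 for H/ACA, which became 0.10 and 0.012 after centring on the receptor median. Over all genes the deposited median was -0.19. Of all genes 10.8% exceeded the shift by 1 log2 unit or more and 0.732% lay as far below it, while 3 C/D and 2 H/ACA members lay above and none below. These 5 were Snord52, Snord73a, Snord87, Snora70 and Snora3, and in each of them 1 MM cell stood far above the other MM cells. Without MM cell 14 only Snord73a was left, and leaving out any other single array gave 4 to 6.

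MM cell 14 held 4 of them. There Snora3 measured 11.27, against 6.05, 6.22 and 6.08 in the other MM cells and 5.49 to 6.90 in JG cells. Snora70 measured 11.66, against 7.22, 6.13 and 7.62 in the other MM cells and 6.19 to 6.70 in JG cells. Both of these H/ACA box RNAs lie in ribosomal protein genes. Snord52 measured 10.63, against 4.97, 5.62 and 4.60 in the other MM cells and 4.54 to 5.35 in JG cells. Snord87 reached 8.12 in the same cell, with 4.53, 5.46 and 4.59 in the other MM cells and 4.55 to 5.08 in JG cells. All 4 were above that array's background of 7.15, and Snora70 was also above background in MM cell 19.

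In MM cell 15 Snord73a measured 11.81, against 5.13, 6.47 and 5.02 in the other MM cells and 5.16 to 6.25 in JG cells. Snord73b, which lies in the same gene, Rps3a1, stayed at 4.04 in that cell. Snord55 reached 11.19 in the same cell, with 8.02, 9.27 and 7.35 in the other MM cells and 7.35 to 9.30 in JG cells, so MM and JG cells overlapped. In JG cell 7 Snora33 measured 10.61, against 6.58, 7.19, 6.60 and 6.0 in the other JG cells and 5.90 to 7.41 in MM cells.

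A measured spanning gene was at hand for Snora3, Snora70, Snord73a and Snora33, and not for Snord52, Snord87 and Snord55. Rpl27a, which holds Snora3, measured 11.92, 11.83, 12.08 and 12.24 in MM cells 14, 15, 16 and 19. Rpl10, which holds Snora70, measured 13.20, 12.91, 12.39 and 12.82, highest in the cell where Snora70 was high. Rps3a1 measured 11.28, 11.79, 12.40 and 11.72. Rps12, which holds Snora33, was lowest in the cell where Snora33 was highest, at 11.96, 12.95, 12.97, 7.29 and 11.15 in JG cells 4 to 8. Genes at least 2 log2 units above the median of the other cells of their group, and above background, were common in these cells. They made up 6.05%, 2.86%, 0.512% and 5.74% of all genes in MM cells 14, 15, 16 and 19, against 7.41%, 3.70%, 0 and 0 of the 54 guide RNAs. In JG cell 7 they were 2.61% of all genes and 1.85% of the guide RNAs, and no guide RNA stood out so far in the other 4 JG cells.

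**Figure D5:**
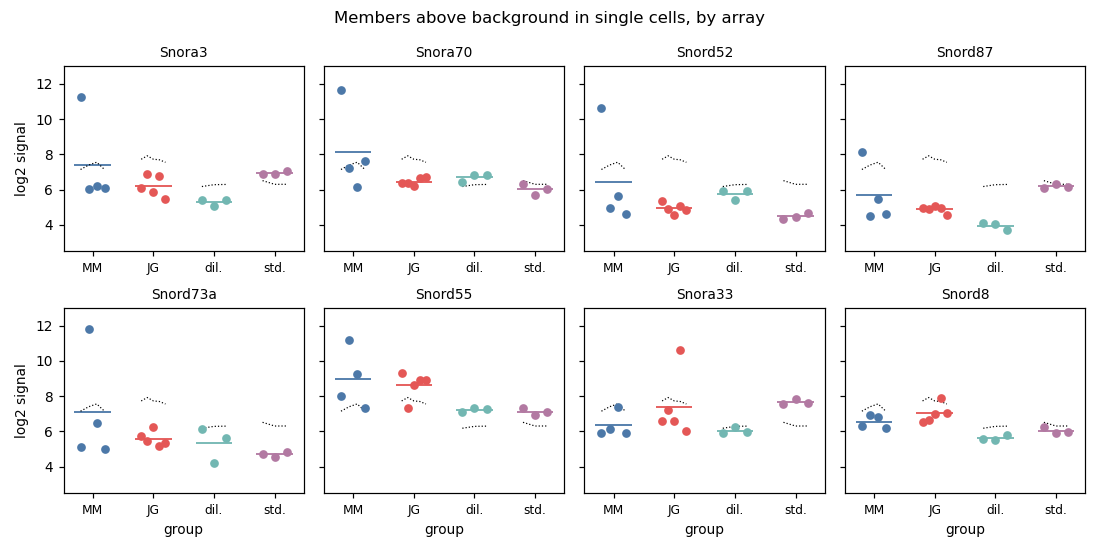
Log2 signal of 8 RNAs that exceeded background in a single cell, by array (points) with the group mean (line) and the receptor background of each array (dotted). In 5 of the panels 1 MM cell lies far above the other MM cells, Snora33 is high in 1 JG cell, and Snord55 is above background in most cells.

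The genes of the particle proteins were set beside the RNAs. Of the 4 core proteins of C/D particles measured (Fbl, Nop56, Nop58 and Snu13), 2 were higher and 1 lower in diluted than in standard cortex, where 27.4% of all genes were higher and 24.9% lower. The same shares apply to the lists that follow. Fbl averaged 11.14 ± 0.11 in diluted and 10.14 ± 0.12 in standard cortex (SD, n = 3 each), and Nop58 5.28 ± 0.43 in diluted and 9.18 ± 0.06 in standard cortex. In single cells Fbl measured 11.82, 11.99, 11.40 and 11.74 in MM cells, against 7.61, 7.31, 11.98, 7.64 and 7.27 in JG cells. It was above background in every MM cell and in JG cell 6 alone. Snu13, which binds the C/D motif first, measured 12.79, 10.06, 6.78 and 12.07 in MM cells, against 6.79 to 7.39 in JG cells, and MM cell 16 was as low as the JG cells. The other core genes did not share this. Nop56 averaged 7.44 in MM and 7.72 in JG cells, and Nop58 4.67 and 4.65, under background in every cell. Thus 2 of the 4 exceeded the MM minus JG receptor shift by 1 log2 unit or more, as did 10.8% of all genes.

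Of the 4 core proteins of H/ACA particles, Dkc1, Nop10 and Gar1 were lower and Nhp2 higher in diluted than in standard cortex. The differences were -1.11, -0.91, -0.63 and 1.73, each called with limma. In MM cells Nhp2 was above background in cells 15, 16 and 19, and in JG cells in 2 of 5. The Cajal body protein list, which counts Nhp2 again, had 7 of 13 genes higher and 2 lower in diluted cortex. Among the higher ones were Wrap53, which brings guide RNAs to the Cajal body (2.2), and Gemin7 of the SMN complex (2.84). The 2 lower ones were Gemin6 (-2.12) and Ddx20 (-0.65). Of 15 assembly and maturation factors, 6 were higher and 6 lower, from Pih1d1 at 2.77 to the poly(A) polymerase gene Tent4b at -3.42. Dkc1 was above background in MM cell 19 alone of the 9 cells, at 10.23, and Gar1 in MM cell 15 alone, at 9.53.

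Small noncoding RNAs with other symbols could be set beside the guides in the cortex. Of 12 measured, 6 were lower and 2 higher in diluted cortex. Among those called, Rny1, Rnu3a and Rnu12, which were lower, and Rnu5g, which was higher, lay under background in every cortex library. Rn7sk, the RNA that restrains the elongation factor P-TEFb, measured 6.01, 6.33 and 6.49 in diluted libraries, against 12.54, 12.66 and 12.61 in standard libraries. That difference of -6.32 (SE 0.13) was larger than the one of Snord104. Terc, the telomerase RNA, which carries an H/ACA domain, measured 5.98, 6.12 and 5.66 in diluted and 6.20, 6.03 and 6.02 in standard libraries, under background in each, and was not called (adjusted p = 0.340 with limma).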

How the data were processed

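Affymetrix mouse gene arrays measured total RNA, biotin-labelled after amplification, in 4 MM cells, 5 JG cells and 3 libraries each of diluted and standard cortex. The authors deposited log2 signals per probe set, made with Affymetrix Expression Console per the submitters' processing notes. Its version and summary algorithm, and any normalization, were not given in the sources used here. No further scaling was applied. Arrays have no count depth, and their number limits the precision.

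Names came from the platform annotation, which lists 23410 of 35557 probe sets, 21789 with 1 symbol, 1621 with several and 12147 not listed. Of the family, 60 probe sets carry 1 symbol and were used, and 41 name several genes and were left out of the comparisons. Twin probe sets of Scarna17, Snora30 and Snord118 held identical values. Coordinates are left out because the annotation states no build. All 54 members matched the RefSeq table of GRCm38.p6, which was used for names, lengths and the gene that spans each member.

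The cortex groups were tested with lmFit and eBayes of limma 3.58.1, under R 4.3.3, on all 35557 probe sets, without a filter, with Benjamini-Hochberg adjustment and a threshold of 0.05. The test was checked on simulated data. Cells of a group count as 1 sample, so they are described without a test, as differences of group means, with a step of 1 log2 unit beyond the median shift of the receptor genes. The rest was done with Python 3.11.15, numpy 2.4.6, pandas 2.3.3 and matplotlib 3.10.9. The members and lists were chosen with earlier results of these data known. Named members were Snord104, all Scarna genes, and per class the brightest in standard cortex, the called members farthest from 0, the brightest and most variable in cells, those above background throughout a group, and those that share a gene with one of them. Alternatives changed the filter, the prior variance, the centring, the normalization, the probe set rule, the replicate block, the threshold, the background and the arrays used.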

Additional observations from a re-analysis of the deposited data

Results flagged for a closer look

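Each member was screened for 1 cell far from the rest of its group, by the gap to the nearest other cell over the group's whole range, against Dixon's critical value for that number of cells. That critical value lets about 1 in 20 sets pass where values are normally spread, which was not checked. The share of all genes that pass was not computed, so the number of members passing cannot be called particular to them. Of 108 sets of values 13 passed, and 3 of the 13 cells were above background. They were Snora3 at 11.27 in MM cell 14 (6.05 to 6.22 in the other MM cells), Snord52 at 10.63 in MM cell 14 (4.60 to 5.62) and Snora33 at 10.61 in JG cell 7 (6.0 to 7.19 in the other JG cells).

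The other 10 lay under background. Among MM cells, cell 15 was high for Snord104 at 7.23 (4.68 to 4.78 in the others) and for Scarna13 at 6.36 (5.85 to 5.87). Cell 16 was high for Snora33 at 7.41 (5.90 to 6.14), Snord49b at 6.64 (5.86 to 5.93) and Snord85 at 5.47 (5.14 to 5.17), and low for Snord15a at 5.23 (5.69 to 5.74). Among JG cells, Snora62 was high in cell 6 at 7.19 (6.44 to 6.62), Snora69 in cell 4 at 5.97 (3.94 to 4.52) and Snord53 in cell 5 at 6.18 (5.34 to 5.50), and Snord22 was low in cell 8 at 6.02 (6.4 to 6.49). A cause was not tested for any of them.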

How the results depend on the processing

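Cortex calls changed little under most settings. A filter on dim probe sets kept those whose higher group mean reached the median signal of the cortex arrays. With it 12 C/D and 11 H/ACA members were tested, with 9 and 4 of them lower, against 16 and 7 without it. Members could pass that filter through the group where they are high alone, so its counts are no check on the calls. Quantile normalization gave 5 C/D members higher, and an adjusted p under 0.01 gave 0 H/ACA members higher. Leaving out 1 library gave 15 to 17 C/D and 5 to 8 H/ACA members lower, and 3 to 4 C/D and 2 to 3 H/ACA members higher. With the replicate block by library letter 17 C/D and 8 H/ACA members were lower and 3 and 2 higher, and all 30 called members stayed called. Deviations of same-letter libraries correlated at 0.089, 0.070 and 0.021, and diluted C correlated more with standard B (0.042), so the letters show no pairing. Of the 30 members called, none changed sign under any of these settings. Some 7 lost the call at an adjusted p under 0.01, 4 each with median centring and quantile normalization, 1 with receptor centring and 1 to 3 without 1 library.

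The cell medians moved with scaling. With array medians, receptor medians or quantile normalization in turn, JG minus diluted cortex was 0.13, -0.42 and -0.12 for C/D and 0.27, -0.27 and 0.20 for H/ACA. MM minus diluted cortex was 0.23, -0.24 and -0.022 for C/D and 0.28, -0.20 and 0.19 for H/ACA. MM minus JG was 0.027 and 0.10 for C/D with the first 2 settings, and -0.056, 0.012 and -0.067 for H/ACA. Members above background alone were mostly chosen by the group where they are high, which sets the sign of their medians, so these show no direction. JG minus diluted was -1.44 over 7 C/D and -0.11 over 4 H/ACA members, MM minus diluted -1.66 over 7 and 0.27 over 5, and MM minus JG 0.33 for 1 and 1.44 over 2. Both members behind the last value were far higher in MM cell 14 than in the other cells. Group medians gave 0.57 for H/ACA, MM minus diluted. Without JG cells 4 and 5, an alternative chosen after seeing the data, C/D medians were 0.50 for JG minus diluted and 0.054 for MM minus JG. Leaving out 1 array gave 0.54 to 0.72, 0.48 to 0.68 and -0.22 to -0.022 for C/D, and 0.74 to 0.89, 0.52 to 0.66 and -0.22 to -0.14 for H/ACA, in JG minus diluted, MM minus diluted and MM minus JG. Signal over background limits these values, since 34 members were above it in no cortex library. The mean number of members above the 95th percentile of the receptors was 7.75 per MM cell, 4.4 per JG cell, 19.7 per diluted and 24.3 per standard library.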

Other observations

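Probe sets that name a guide RNA together with other genes were not among the members, and some held signal. The one shared by Rpl12 and Snora65 measured 11.06 in MM cell 14, against 5.93 to 6.54 in the other MM cells. The same cell stood out for Snora3, Snora70, Snord52 and Snord87. A probe set shared by Snord68 and Rpl13 measured 5.43, 6.49 and 6.09 in diluted libraries, against 3.70, 3.69 and 3.52 in standard libraries. Those of Snord14c, Snord14d and Hspa8 lay at 5.53 to 6.37 over diluted libraries and 7.33 to 7.74 over standard libraries, lower in diluted cortex as Snord14e was. These probe sets were picked after their values were seen, and they are given as values only.

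Snord116 RNAs, C/D box RNAs of an imprinted cluster that is active in neurons, are covered by 24 probe sets that share their symbols. None was above background on any array, with levels of 4.41 to 5.69 on MM arrays, 4.30 to 5.30 on JG arrays, 3.28 to 3.72 on diluted and 3.67 to 4.35 on standard cortex arrays.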
